A study of Macaca mulatta with 13 samples.

Results

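The circadian clock genes were followed in a thigh muscle, the vastus lateralis, taken from old rhesus monkeys (Macaca mulatta), all male. The 10 genes considered were CLOCK, PER1, PER2, PER3, CRY1, CRY2, NR1D1, NR1D2, DBP and TEF. A gene was included when the array's annotation gave a probe set, the group of short probes that measures a transcript, that 1 gene symbol alone. This gave 7 genes with 11 probe sets, of 14132 singly named genes on the array. CRY1, NR1D2 and DBP had no probe set of that kind and were not analysed here. The animals were 8 monkeys on a calorie-restricted (CR) diet, aged 27 to 32 years, and 5 monkeys on a control diet, aged 27 to 30 years. The restriction had lasted 18.5 years. RNA of each monkey was measured on its own one-colour Affymetrix array, and precision is limited by how many arrays there are.

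The clock of most cells is a loop of transcription factors that runs with a period of about a day. CLOCK pairs with BMAL1, the product of ARNTL, and together they switch on genes that carry the E-box sequence in their promoters. Among these targets are the PER and CRY genes, whose proteins return to the nucleus and inhibit CLOCK and BMAL1, and NR1D1 and NR1D2, which encode the REV-ERB repressors of ARNTL transcription. DBP and TEF encode transcription factors of the PAR bZIP family that carry the rhythm to output genes. In skeletal muscle this clock is known for timing genes of glucose and lipid use, and its transcripts rise and fall with the hour of the day and the time of feeding. The labels used here give neither the hour of sampling nor the time since the last meal, so the place of that hour in the values below was not tested.

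Trimmed mean signals were 500.04 to 500.05 on every array, and r between 2 arrays lay between 0.834 and 0.940 across 26383 probe sets, which are not independent replicates. The log2 ratio of 3′ to 5′ signal, a measure of RNA quality, averaged 0.711 ± 0.135 in CR and 0.577 ± 0.233 in controls for GAPDH (SD, n = 8 and 5, exact permutation p = 0.214). For actin it averaged 1.74 ± 0.315 in CR and 1.75 ± 0.382 in controls (SD, n = 8 and 5, exact permutation p = 0.986). All 10 muscle marker genes with a probe set passed the filter on dim probe sets, and the summed signal of these markers ran from 486320 to 860230 in CR animals and from 366590 to 803730 in controls. Control replicate 4 stood apart from the rest. It had the lowest mean correlation with the other arrays (0.879), the highest actin ratio (2.41, with 2.08 the next), the lowest summed muscle markers and the highest summed endothelial and fibroblast markers. The sum of 8 endothelial markers was 4527.7 to 10615 in CR animals, and 18421 in control replicate 4 and 6598.3 to 12139 in the other controls. That of 5 fibroblast markers was 34655 to 82973 in CR animals, and 122030 in control replicate 4 and 29864 to 70901 in the other controls. For 5 fat cell markers its sum of 40043 was the highest among controls, and CR replicate 2 had 45827. Summed macrophage markers ran from 1927.1 to 5243.7 in CR animals and from 2774.8 to 4099.1 in controls, and summed blood markers from 1043.4 to 5480.4 in CR animals and from 796.38 to 5869.5 in controls. In whole muscle, fewer cells of a type and less RNA per cell cannot be told apart. The part of these cell types in the clock gene values was not tested in these bulk samples.

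No clock gene passed the test between the diets. Values are log2 signals, where a step of 1 is a doubling, and each difference is the CR mean minus the control mean with its standard error (SE) from limma, a linear model fitted to all 26383 tested probe sets. The threshold was an adjusted p under 0.05 after Benjamini-Hochberg correction over all of them. Of the 8 tested clock probe sets, 0 were called higher in CR and 0 lower, the same share as over all tested probe sets (0% in each direction). At an unadjusted p under 0.05 limma gave 0 of the 8, where 2.43% of all tested probe sets reached it, and the exact rank-sum test gave 2.48% of all tested probe sets before adjustment. After adjustment the rank-sum test called 0%. Its smallest p is 0.00155, at which 820 probe sets without overlap would be needed, and 19 did not overlap. For the brightest probe set of each gene, 3 differences were positive and 4 negative, between -0.21 and 0.13, with a median of -0.04. Without control replicate 4, a setting chosen after seeing the data, 3 were positive and 4 negative with a median of -0.16: 0.18 for CLOCK, -0.17 for PER1, -0.16 for PER2, -0.36 for PER3, 0.014 for CRY2, -0.35 for NR1D1 and 0.043 for TEF. The median over all tested probe sets was -0.01, and 48.1% of them were positive. The CR and control animals overlapped for every one of the 11 clock probe sets, and 0.072% of all tested probe sets did not overlap.

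CLOCK, the DNA-binding partner of BMAL1 in the positive arm of the loop, was measured by 1 probe set (MmugDNA.24651.1.S1_at). Its mean log2 signal was 7.07, not far above the filter at 6.74. In CR animals its log2 signal ran from 6.35 through a median of 7.15 to 7.66, and in controls it was 6.64, 6.49, 7.53, 7.21 and 7.10. Its lowest value, in CR replicate 2, and its highest, in CR replicate 8, both lay in the CR group, and the whole control range fell inside. CLOCK averaged 7.12 ± 0.41 (SD, n = 8) in CR and 6.99 ± 0.42 (SD, n = 5) in controls, a difference of 0.13 ± 0.29 (SE, limma adjusted p = 0.999). The 95% interval of the difference, before adjustment, was -0.49 to 0.75, or a fold between 0.711 and 1.68.

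Among the period genes, whose proteins form the inhibitory complex with the cryptochromes, PER1 (MmugDNA.1526.1.S1_at) had log2 signals from 10.32 through a median of 10.75 to 11.28 in CR animals. The controls were at 11.38, 11.19, 11.04, 10.32 and 10.14. The control animals thus held both the highest and the lowest PER1 value, and all 8 CR animals lay within the control range. The means were 10.77 ± 0.37 in CR (SD, n = 8) and 10.82 ± 0.55 in controls (SD, n = 5), and the difference was -0.05 ± 0.23 (SE, 95% interval -0.54 to 0.45, limma adjusted p = 0.999). The 13 animals spanned 2.35-fold in PER1 signal.

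PER2 had 2 probe sets that passed the filter. The brighter (MmugDNA.41285.1.S1_s_at) gave 8.02, 8.16 and 8.42 as the lowest, median and highest log2 signal in CR animals, against 8.78, 8.31, 8.04, 7.75 and 8.23 in controls. All 8 CR animals again lay inside the control range, which ran from control replicate 4 at the bottom to control replicate 1 at the top. The difference was -0.05 ± 0.19 (SE, 95% interval -0.45 to 0.35), and limma's adjusted p was 0.999. The dimmer PER2 probe set differed by -0.04 ± 0.35 (SE), and over the 13 animals it followed the brighter one with r = 0.630 and rho = 0.687. The permutation p was 0.0154 for r and 0.0117 for rho. Adjusted over 5 such comparisons of probe sets of 1 gene, these became 0.0771 and 0.0584.

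PER3 was close to the filter, which keeps the brighter 50% of probe sets and is not a detection limit. Its brighter probe set (MmugDNA.14106.1.S1_at) had a mean log2 signal of 6.75, just above the filter at 6.74, and its other probe set lay below the filter with a mean of 5.38. In CR animals the brighter probe set ran from 4.61 through a median of 7.02 to 7.38, and controls had 7.53, 6.44, 7.34, 6.29 and 6.79. The low end was CR replicate 1 alone, and the next CR animal was at 6.25. The difference was -0.21 ± 0.45 (SE, 95% interval -1.16 to 0.74, limma adjusted p = 0.999), and it was 0.08 without CR replicate 1. The dimmer probe set differed by -0.24 ± 0.68 (SE). No correlation between the PER3 probe sets was detected over the 13 animals (r = -0.248, permutation p = 0.424, rho = -0.187, p = 0.541, with adjusted p of 0.530 and 0.541 over the same 5 comparisons).

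CRY2 (MmugDNA.41734.1.S1_at) encodes a cryptochrome, the partner of the PER proteins that binds and inhibits CLOCK and BMAL1. Its log2 signal was 10.60 at the lowest, 11.08 at the median and 12.06 at the highest in CR animals, and 10.80, 11.93, 11.19, 11.13 and 10.65 in controls. The highest animals were CR replicate 1 and control replicate 2, one in each diet, and the groups overlapped throughout. The means were 11.16 ± 0.44 in CR (SD, n = 8) and 11.14 ± 0.50 in controls (SD, n = 5). Their difference of 0.02 ± 0.24 (SE, 95% interval -0.49 to 0.52, limma adjusted p = 0.999) was the closest to 0 among the genes, and it was -0.11 without CR replicate 1 and 0.21 without control replicate 2.

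NR1D1 encodes REV-ERB alpha, the haem-binding repressor of ARNTL. The brighter probe set (MmuSTS.3017.1.S1_at) gave 9.35, 9.96 and 10.42 as the lowest, median and highest log2 signal in CR animals, and 9.98, 10.84, 10.56, 8.74 and 9.80 in controls. The controls spanned a wider range than the CR animals on both sides, from control replicate 4 to control replicate 2. The difference was -0.04 ± 0.28 (SE, 95% interval -0.64 to 0.56, limma adjusted p = 0.999). It was -0.35 without control replicate 4, the animal with the highest endothelial and fibroblast markers.

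The dimmer NR1D1 probe set (MmugDNA.17902.1.S1_at), with a mean log2 signal of 6.19 below the filter, disagreed in direction. It ran from 5.05 through a median of 6.71 to 7.30 in CR animals and was at 6.35, 6.83, 6.02, 5.20 and 3.73 in controls. The control mean was exceeded by 7 of the 8 CR animals, but 4 of the 5 controls lay inside the CR range. Its difference of 0.92 ± 0.54 (SE, 95% interval -0.21 to 2.04) was the widest of the clock probe sets and had an unadjusted p of 0.103 and an adjusted p of 0.999 in the limma fit without a filter. The NR1D1 probe sets correlated with r = 0.441 (permutation p = 0.134, adjusted p = 0.224) and rho = 0.291 (p = 0.332, adjusted p = 0.541) over the 13 animals.

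TEF, the PAR bZIP output factor, had a bright probe set (MmuSTS.2233.1.S1_at) with 10.90, 11.56 and 11.99 as the lowest, median and highest log2 signal in CR animals. Controls were at 11.07, 11.93, 11.21, 11.18 and 11.59. Of the CR animals 5 lay between 11.55 and 11.61, and the diets overlapped throughout. The means were 11.49 ± 0.32 in CR (SD, n = 8) and 11.40 ± 0.36 in controls (SD, n = 5), a difference of 0.10 ± 0.19 (SE, 95% interval -0.30 to 0.50, limma adjusted p = 0.999). The dim TEF probe set, below the filter, differed by 0.51 ± 0.48 (SE), and no correlation with the bright one was detected (r = -0.0422, permutation p = 0.891, adjusted p = 0.891; rho = -0.225, p = 0.457, adjusted p = 0.541).

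**Figure D1:**
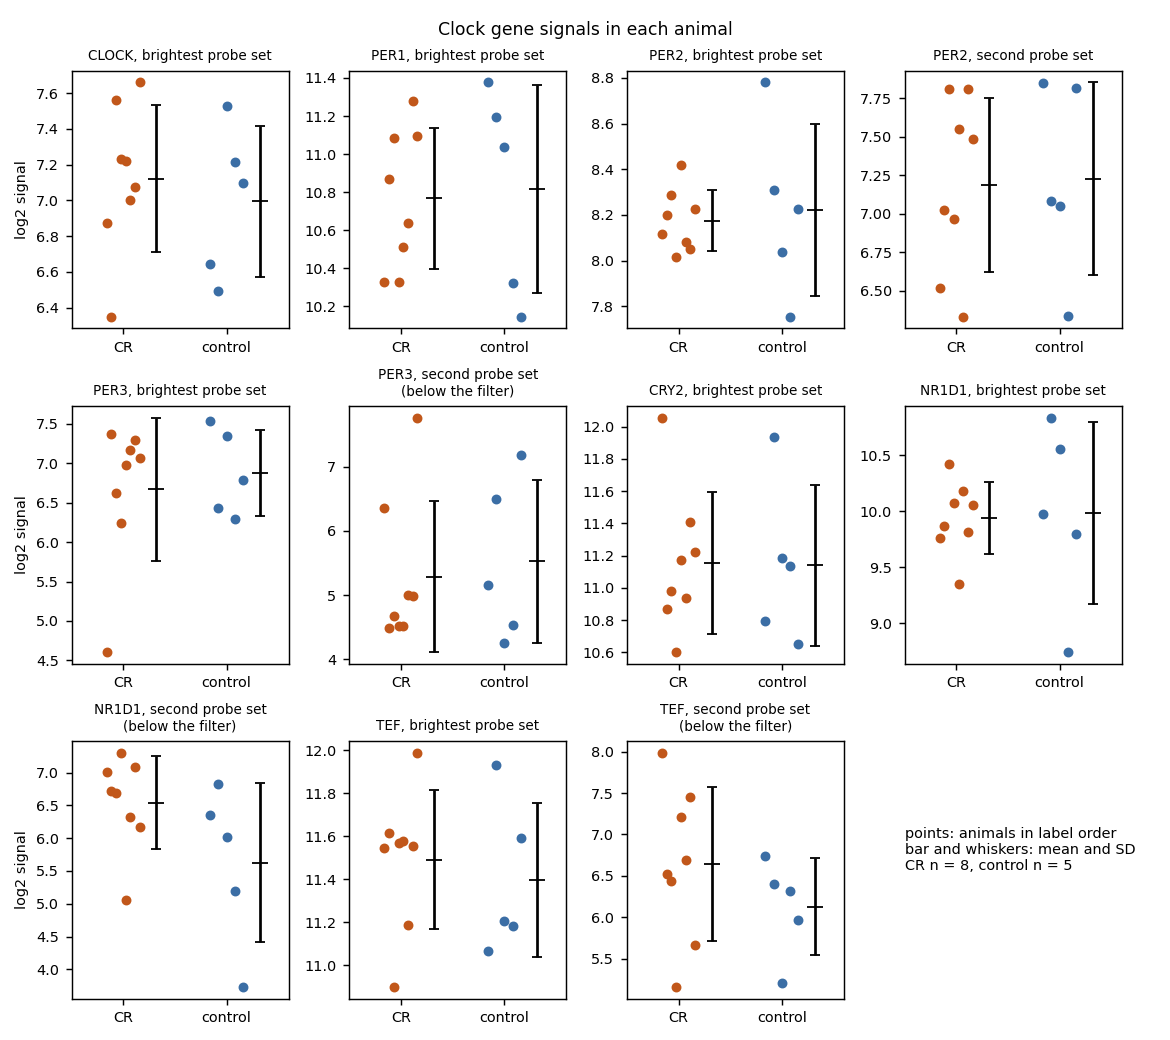
Log2 signal of the 11 probe sets of the 7 clock genes, with 1 point per animal (CR, n = 8, left; control, n = 5, right) and the mean with its SD beside them; each panel has its own vertical scale, which does not start at 0. The CR and control points overlap in every panel, and CR replicate 1 is alone at the bottom for PER3 at 4.61.

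The spread between animals of a diet is given as a description. By the brightest probe set of each gene, PER2 had an SD of 0.13 in CR and 0.38 in controls. NR1D1 had an SD of 0.32 in CR and 0.81 in controls, on the log2 scale. Without control replicate 4 the control SD was 0.32 for PER2 and 0.49 for NR1D1, and without control replicate 1 it was 0.25 for PER2. By these probe sets the SD was smaller in CR for 6 of the 7 genes, with PER3 the exception (0.91 in CR and 0.55 in controls). It was smaller in CR for 55.8% of all tested probe sets. With control replicate 4 left out these became 6 of 7 genes and 45.8% of all tested probe sets. For CLOCK, 1 of the 6, the SDs were close with all animals in, 0.41 in CR and 0.42 in controls. The dimmer PER2 probe set, which passed the filter, had an SD of 0.57 in CR and 0.63 in controls. Without control replicate 4 its SD was no longer smaller in CR. The count over the 8 tested clock probe sets thereby went from 7 to 6. Below the filter the SD was 1.17 in CR and 1.27 in controls for PER3, and 0.71 and 1.21 for NR1D1. For the dim TEF probe set it was larger in CR, 0.93 against 0.58. The difference in spread was not tested. The median residual SD was 0.45 over all tested probe sets. For the brightest probe sets it was 0.25 for PER2, 0.34 for TEF, 0.42 for CLOCK and 0.44 for PER1. It was 0.46 for CRY2, 0.55 for NR1D1 and 0.80 for PER3. The dimmer PER2 probe set had a residual SD of 0.59.

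None of the other genes of the clock pathway passed the test. Of 40 symbols listed, which include older names of the same genes, 28 genes had a probe set and 25 a brightest probe set that passed the filter. Of their 46 tested probe sets limma called 0 higher and 0 lower in CR, and 0 had an unadjusted p under 0.05, where 1.25% of all tested probe sets were higher and 1.18% lower at that level. By their brightest probe set 12 genes were higher and 13 lower, with a median difference of -0.0037. The clock-controlled output genes had 5 of 7 higher with a median of 0.27, and 6 of 7 with a median of 0.091 without control replicate 4, which was the lowest animal for 4 of the 7. Of the kinases, ligases and corepressors 5 of 11 were higher, with a median of -0.0037. Of the other repressors and PAR bZIP factors 1 of 4 was higher, with a median of -0.12, or -0.27 without control replicate 4. The lowest p of the list, 0.0528 unadjusted in limma, belonged to a further probe set of NCOR1 (named after its value was seen), a corepressor that works with REV-ERB, with a difference of -0.40 ± 0.19 (SE). The brightest NCOR1 probe set differed by -0.16 ± 0.18 (SE), and the remaining tested ones by -0.32, -0.15 and -0.06.

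ARNTL, which encodes BMAL1, had log2 signals from 6.72 through a median of 8.10 to 8.78 in CR animals, and 7.60, 8.73, 9.23, 7.88 and 8.45 in controls. CR replicate 7 was the lowest animal and control replicate 3 the highest, and the control mean was exceeded by 2 of the 8 CR animals. The difference was -0.37 ± 0.33 (SE, 95% interval -1.06 to 0.32, limma adjusted p = 0.999), or 0.773-fold, and the dimmer ARNTL probe set differed by -0.54 ± 0.74 (SE). For the brighter one leaving out control replicate 3 gave -0.16, control replicate 1 -0.56 and control replicate 4 -0.50. ARNTL2, a BMAL1 relative, differed by 0.05 ± 0.45 (SE).

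The other genes of the list with the lowest p, by their brightest probe set, also did not pass. MYOD1, the muscle-determining factor and a known target of CLOCK and BMAL1 in mouse muscle, differed by 0.36 ± 0.19 (SE), with unadjusted p = 0.0823 from limma. It ran from 10.60 through a median of 11.21 to 11.88 in CR animals and was at 10.67, 10.91, 10.90, 10.58 and 11.24 in controls, so that 6 of the 8 CR animals exceeded the control mean. NFIL3, a repressor that competes with the PAR bZIP factors for their DNA sites, differed by 0.45 ± 0.27 (SE). With 1 animal left out this ran from 0.34 (without control replicate 3) to 0.70 (without control replicate 1). KLF15, a regulator of amino acid and lipid use whose transcript follows the clock in mice, differed by 0.27 ± 0.18, and all 8 CR animals exceeded the control mean (SD 0.16 in CR and 0.48 in controls). Control replicates 2 and 4 were the lowest animals, at 10.03 and 9.99, and the difference was 0.15 without the one and 0.14 without the other. The dimmer KLF15 probe set, below the filter, differed by 0.06 ± 0.69 (SE). NONO, an RNA- and DNA-binding partner of the PER proteins, differed by -0.31 ± 0.23, and by -0.16 without control replicate 2. The dimmer NONO probe set, which passed the filter, differed by -0.05 ± 0.54 (SE). CSNK1A1, a casein kinase of the family that phosphorylates PER proteins, differed by 0.19 ± 0.18, while -0.24 and -0.12 were measured by its further probe sets. Without control replicate 4 the CSNK1A1 difference was 0.011. The limma adjusted p of each of these genes was 0.999.

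**Figure D2:**
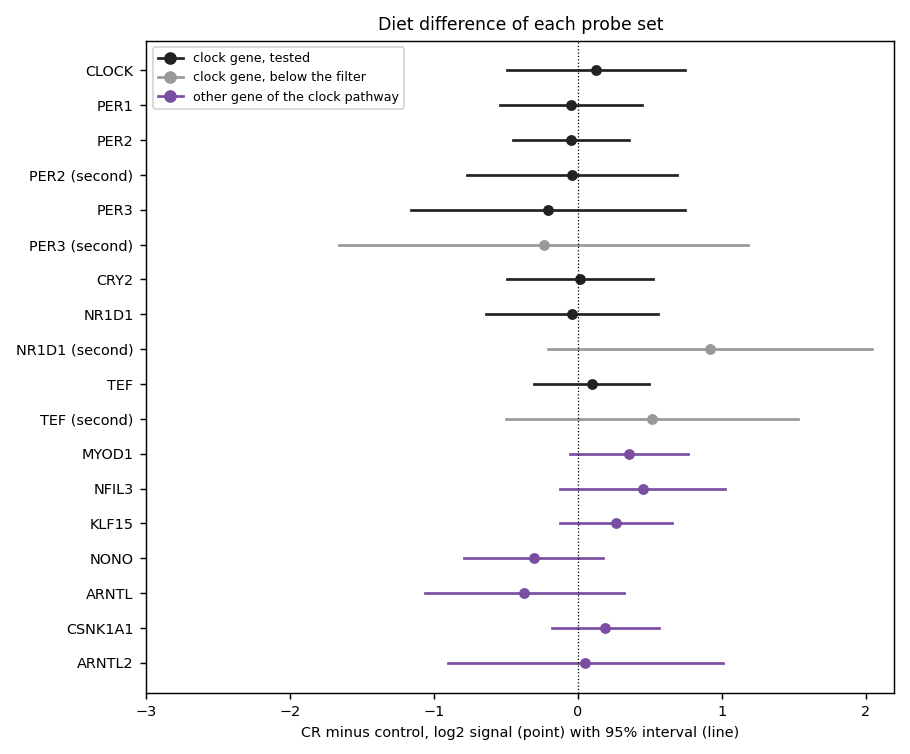
CR minus control difference in log2 signal (points) with its 95% interval before adjustment (lines) for the 11 clock probe sets and 7 other pathway genes. Every interval includes 0, and the points of the brightest clock probe sets lie between -0.21 and 0.13.

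How the positive and negative arms related to each other from animal to animal was examined next. Pearson's r and Spearman's rho were computed over the 13 animals for all 28 pairs of CLOCK, ARNTL, PER1, PER2, PER3, CRY2, NR1D1 and TEF, each by its brightest probe set. Two-sided p-values came from 100000 permutations and were adjusted over the 28 pairs. The points share arrays, and with them the RNA quality and cell mix of each animal. After adjustment 0 pairs passed by r and 0 by rho, and before adjustment 1 pair had a permutation p under 0.05 by each measure.

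CLOCK had a negative r with 4 of the 5 negative-arm genes, between -0.31 for PER2 and 0.02 for PER3, with a median of -0.10. None of these passed in the permutation test (lowest p = 0.310, adjusted p = 0.949). For CLOCK and PER2 rho was -0.220 (permutation p = 0.471, adjusted p = 1), and r was -0.34 without control replicate 2 and CR replicate 2, the animals farthest from the CLOCK median. Within the 8 CR animals r of this pair was 0.25 (exact permutation p = 0.552, adjusted p = 0.985). No correlation was computed within the 5 controls alone.

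ARNTL, the partner of CLOCK, had a negative r with PER1 (-0.21), PER3 (-0.16) and PER2 (-0.08), and a positive one with CRY2 (0.14). With the mean of each gene's probe sets, which takes in an ARNTL probe set below the filter, r with PER2 was -0.57 (permutation test, adjusted p = 0.429). Within the CR animals r with PER2 was 0.22 (exact permutation p = 0.609, adjusted p = 0.985). There r with PER1 was -0.53 (exact permutation p = 0.175, adjusted p = 0.985). By the brightest probe sets the largest r of ARNTL was with NR1D1, the gene whose product represses it, and this was positive. It was r = 0.454 (permutation p = 0.118, adjusted p = 0.661), with rho = 0.50 (p = 0.0853, adjusted p = 0.862). Leaving out control replicate 3 and CR replicate 7, the animals farthest from the ARNTL median, gave r = 0.47, and the CR animals alone gave r = 0.25 (exact permutation p = 0.519, adjusted p = 0.985). With the mean of each gene's probe sets it was 0.069. CLOCK and ARNTL themselves had r = 0.141 (permutation p = 0.651, adjusted p = 0.949). Over all 10 pairs of a positive-arm with a negative-arm gene 7 were negative and 3 positive, with a median of -0.09. Within the CR animals 4 of the 10 were negative, with a median of 0.12.

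Within the negative arm 8 of 10 pairs had a positive r, with a median of 0.23, where 14 of all 28 pairs were positive. Among the CR animals alone 4 of these 10 pairs were negative, with a median of 0.041. PER1 and PER3 gave r = 0.546 (permutation p = 0.0357, adjusted p = 0.543) and rho = 0.571 (p = 0.0452, adjusted p = 0.862), the only pair under 0.05 before adjustment. The CR animals alone gave r = 0.620 (exact permutation p = 0.0702, adjusted p = 0.985), and r was 0.61 without control replicate 4 and control replicate 5, the animals farthest from the PER1 median. With the mean of the PER3 probe sets it was 0.31. Control replicate 1 had the highest signal of both genes, and CR replicate 1, with the lowest PER3, was among the 4 lowest for PER1.

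PER1 and NR1D1, both direct targets of CLOCK and BMAL1 through E-boxes in mice, gave r = 0.538 (permutation p = 0.0548, adjusted p = 0.543) and rho = 0.489 (p = 0.0924, adjusted p = 0.862). The CR animals alone gave r = 0.313 (exact permutation p = 0.463, adjusted p = 0.985), and r was 0.42 without control replicate 4 and control replicate 5. PER1 and PER2 gave r = 0.465 (permutation p = 0.108, adjusted p = 0.661) and rho = 0.412 (p = 0.163, adjusted p = 1), but r = 0.102 within the CR animals (exact permutation p = 0.808, adjusted p = 0.985), 0.258 without control replicate 1 and 0.362 without control replicate 4. Control replicate 4 was the lowest of the 13 animals for PER2 and NR1D1, and among the lowest 3 for PER1 and PER3.

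CRY2 had r = 0.17 with PER1 and -0.10 with PER2. Its pair with PER3 had the most negative r of all, -0.552 (permutation p = 0.0582, adjusted p = 0.543), while rho was only -0.187 (p = 0.541, adjusted p = 1). This value rested on CR replicate 1, the animal with the highest CRY2 and the lowest PER3, and without it r was -0.085. TEF had r between -0.19 and 0.37 with the other genes, the highest with CRY2 (r = 0.366, permutation p = 0.218, adjusted p = 0.949; rho = 0.187, p = 0.540, adjusted p = 1), and 0.11 without control replicate 2 and CR replicate 1.

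**Figure D3:**
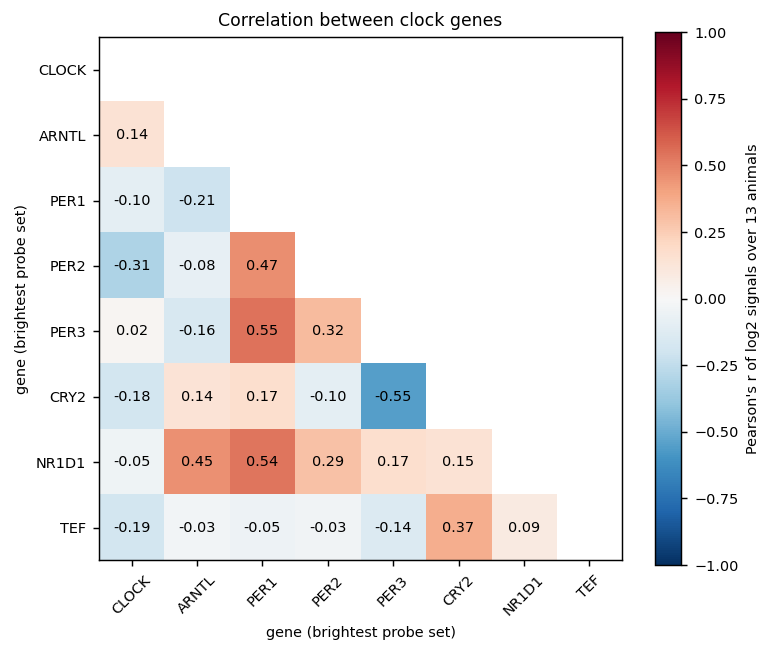
Pearson's r of log2 signals over the 13 animals (colour and number) for each pair of 8 clock genes, each by its brightest probe set. The PER1 column is positive with PER2, PER3 and NR1D1 (0.47, 0.55 and 0.54). The CLOCK column is near 0 or negative apart from 0.14 with ARNTL and 0.02 with PER3, and no pair passed after adjustment.

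**Figure D4:**
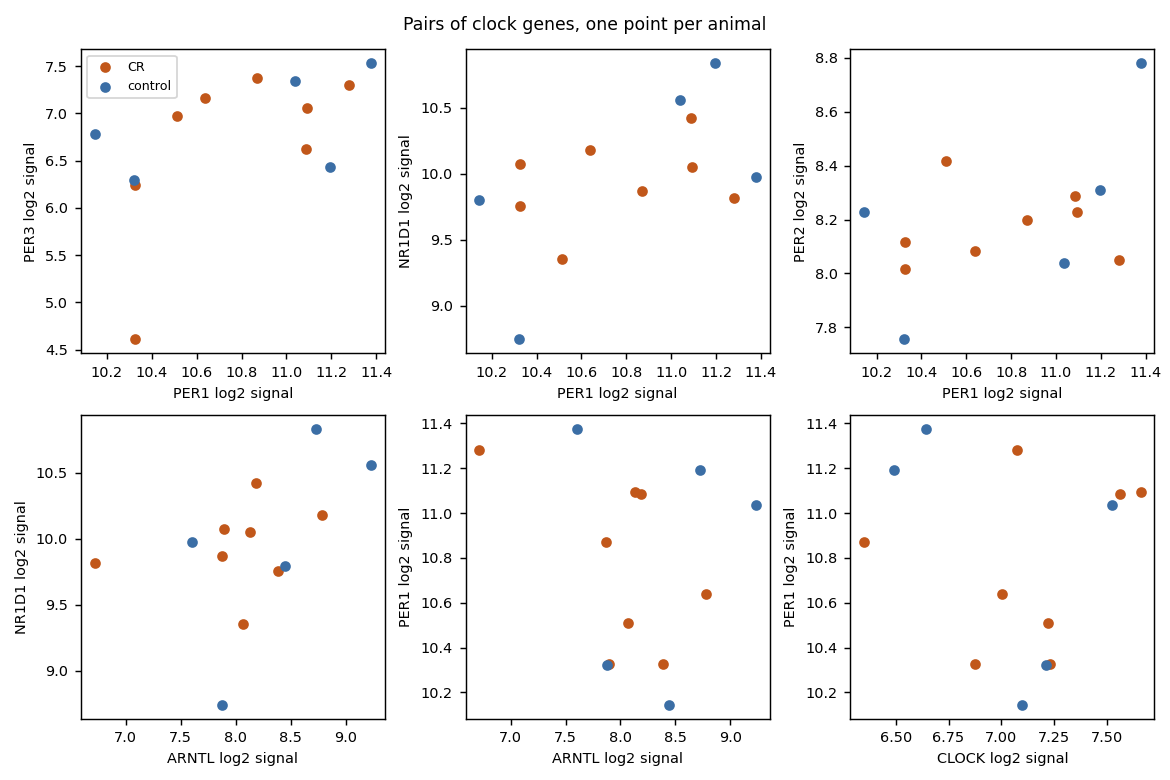
Log2 signals of 6 pairs of clock genes, 1 point per animal (CR and control coloured apart). PER1 has a positive r with PER3 (r = 0.546), NR1D1 (r = 0.538) and PER2 (r = 0.465) among the points, none of which passed after adjustment. PER1 shows little relation to ARNTL (r = -0.21) or CLOCK (r = -0.10), and CR and control points are mixed in all panels.

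The ranks of clock genes among all tested probe sets, some of them given here, place these values. After each signal was centred on its diet mean, PER3 came 952nd and NR1D1 1012th of 26382 probe sets by their r with PER1 (0.54 for each), and PER2 came 1855th (r = 0.46). CRY2 came 8441st there, TEF 15165th, CLOCK 16576th and ARNTL 20984th. In the other direction PER1 came 1687th by r with PER3, 1616th with NR1D1 and 2766th with PER2. By r with PER3, CRY2 came 25605th. By r with ARNTL, NR1D1 came 1451st (r = 0.46), CLOCK 6059th, CRY2 7364th, TEF 11707th, PER2 16422nd, PER1 20275th and PER3 19548th. CIART, a repressor of CLOCK and BMAL1 from the pathway list that was picked out here after its values were seen, came 294th for PER1 (r = 0.65) and 323rd for NR1D1 (r = 0.71). It came 1424th for PER2, 3776th for PER3 and 3995th for TEF. For CLOCK it came 16858th, for CRY2 14456th and for ARNTL 14250th. Control replicate 4 was the lowest animal for both CIART (8.38) and NR1D1 (8.74). CIART itself differed between the diets by -0.21 ± 0.25 (SE, log2, limma adjusted p = 0.999).

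No other clock gene was among the 3 genes most alike to any member. Over 9812 genes compared by the diet-centred r of 13 arrays, the highest were SNX22 (0.86), TP53I11 (0.85) and CHRNA10 (0.85) for PER1. For PER2 they were PPP1R21 (0.86), VGLL2 (0.85) and POLN (0.85), and for PER3 CA7 (0.91), ASXL3 (0.89) and LOC711099 (0.89). For CLOCK they were SSTR4 (0.85), LOC698724 (0.82) and TMEM59L (0.81), and for CRY2 LOC699404 (0.93), RAI1 (0.86) and PLAAT3 (0.84). For NR1D1 they were COPS8 (0.91), SAR1B (0.91) and ELOC (0.90), and for TEF CDV3 (0.92), EHBP1L1 (0.90) and CACNB1 (0.87). These are the highest of many values from few arrays and are given as a description.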

How the data were processed

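Per the labels, Trizol RNA was made into biotinylated cRNA for Affymetrix arrays. The deposited series table gives intensity on a linear scale, 1 value per probe set and array. The submitters' processing notes name MAS5, with no version in what was used here. Of 52865 probe sets, 99 control probe sets were removed. Signals were floored at 1 and log2 transformed, and the dimmer 50% by mean were left out (limit 107).

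Two-sided tests of CR against control came from limma 3.58.1 (R 4.3.3), with lmFit and a trended eBayes. Clock probe sets below the filter took their values from a fit without it. Correlations used numpy 2.4.6 and scipy 1.17.1, and figures matplotlib 3.10.9. The fit was also run on simulated data with known changes and independent noise, and the outcome is not reported here. Named genes were all members, the pathway's 6 genes with the lowest p and the partners of CLOCK, and 3 genes most alike per member. CIART and NCOR1 fall outside this rule. Members and lists were chosen with earlier results of these data known. The labels mark each array as a biological replicate, and no array repeated another. No sequences were used here.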

Additional observations from a re-analysis of the deposited data

Results flagged for a closer look

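In 36 sets of values (a probe set within a diet), 3 had an animal far from the rest of its group, where chance flags about 1 in 20, or 1.8. The lowest PER3 log2 signal among CR animals was 4.608 in CR replicate 1, and the next was 6.25. The lowest ARNTL signal among CR animals was 6.716 in CR replicate 7, and the next was 7.87. The lowest CSNK1A1 signal among controls was 9.906 in control replicate 4, and the next was 10.7.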

How the results depend on the processing

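The count of probe sets past limma's threshold stayed at 0 in both directions under the other normalizations, filters, weights and covariates, and ran from 0 to 1 higher and from 0 to 0 lower when 1 animal was left out (1 without control replicate 1, and 1 without control replicate 5). The exact rank-sum test also gave 0. At its smallest p a pass would need 820 probe sets without overlap, and 19 did not overlap. Clock pathway probe sets and clock gene pairs past the threshold stayed at 0 under each alternative, leaving out any 1 animal included (0 to 0). The replicate numbers did not pair the animals: deviations of animals with the same number correlated between -0.203 and 0.020, and 0 of 5 controls correlated best with its own number. With the replicate block the count was 0 and the CRY2 difference -0.0040.

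Of 162 gene differences under alternatives other than leaving out 1 animal, 11 changed sign, and none crossed the threshold. The CRY2 difference was -0.016 with median centring, -0.017 with array quality weights and -0.058 by medians in the rank-sum test. The NR1D1 difference was 0.13 with RNA quality covariates and 0.44 for the mean of its probe sets. The PER3 difference of medians was 0.23. For ARNTL2 the mean of its probe sets gave -0.053 and the medians -0.28, and for CSNK1A1 the mean gave -0.058. Without control replicate 4 and CR replicate 8 together, an alternative chosen after seeing the data, TEF was at -0.027. With 1 animal left out the difference ran from -0.22 to 0.092 for PER1, -0.16 to 0.093 for PER2, -0.36 to 0.085 for PER3, -0.11 to 0.21 for CRY2, -0.35 to 0.17 for NR1D1 and -0.31 to 0.29 for ARNTL2.

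Of 128 correlations under such alternatives, 14 changed sign. Within CR animals alone r was 0.25 for CLOCK with PER1, 0.25 with PER2 and 0.33 with NR1D1, 0.22 for ARNTL with PER2 and -0.041 with CRY2. Without the 2 animals farthest from the CLOCK median it was 0.11 for CLOCK with PER1 and 0.28 with NR1D1. The mean of probe sets gave 0.017 for CLOCK with PER2. CLOCK with PER3 was at -0.20 after quantile normalization, -0.091 with RNA quality residuals and -0.014 without both animals, and CLOCK with NR1D1 at 0.18 with the residuals and 0.041 without both animals. ARNTL with PER2 was at 0.049 after quantile normalization. With 1 animal left out r ran from -0.22 to 0.041 for CLOCK with PER1, -0.19 to 0.18 with PER3, -0.34 to 0.066 with CRY2, -0.18 to 0.22 with NR1D1 and -0.045 to 0.30 with ARNTL, and from -0.36 to 0.048 for ARNTL with PER1, -0.29 to 0.17 with PER2 and -0.012 to 0.37 with CRY2. The cause of these changes was not tested. The 95% intervals of the clock genes, before adjustment, reached 0.401 to 0.951 to either side, and larger changes can also miss the adjusted threshold.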
